A study of Mus musculus with 6 samples.

Results

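Paneth cells were followed through the transcripts they are best known for: the α-defensins (gene symbols beginning with Defa) and the granule proteins Lyz1, Mmp7, Ang4 and Itln1. Of 43 annotated genes with these symbols, 23 had at least 15 reads over the 6 libraries and are described here, out of 55298 genes in the count table. They are 13 coding α-defensin genes, 6 α-defensin pseudogenes and the 4 other granule genes. Epithelial cells came from the small intestine of mice in the collagen-induced arthritis model, where mice immunised with collagen develop inflamed joints. The 3 ΔIEC libraries carry the genotype label HIF2[alpha] +/- [delta]IEC and the column name delta.Hif2a, and the series describes them as an intestine-specific HIF2α knockout. The 3 control libraries carry the label HIF2[alpha] +/- F/F and the column name WT, and come from littermates. All 6 share the arthritis model and the +/- of the label, whose meaning is not stated in the sources used here. The promoter that drives the deletion, the exons removed, and the age and sex of the mice are not stated there either.

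Paneth cells sit at the base of the crypts of the small intestine and store antimicrobial proteins in large apical granules, which they release into the crypt lumen. The mouse α-defensins, also called cryptdins, are short cationic peptides that damage bacterial membranes. They are made as inactive precursors, which matrilysin cuts to the active form inside the mouse granule. Lysozyme breaks the bacterial cell wall, and the granules also hold an RNase with bactericidal activity and a lectin that binds microbial sugars. Paneth cells mature under Wnt signals and feed signals back to the neighbouring stem cells.

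The α-defensin genes are tandem copies, and the letters of their transcripts decide which reads can be told apart. All 19 kept α-defensin genes lie on GRCm38 chromosome 8 within 710 kb, between positions 21025545 and 21735471. The last coding exon holds the mature peptide in the mouse, so it is shown for the copies on which the results turn, with capitals marking the letters that differ from Defa24, the copy with the most reads. The positions are GRCm38, forward strand, and the sequences are from the GENCODE M21 transcripts.
Defa24, chr8:21735268-21735374: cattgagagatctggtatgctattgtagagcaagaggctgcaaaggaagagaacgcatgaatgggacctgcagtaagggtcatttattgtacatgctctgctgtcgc
Defa30, chr8:21135394-21135500: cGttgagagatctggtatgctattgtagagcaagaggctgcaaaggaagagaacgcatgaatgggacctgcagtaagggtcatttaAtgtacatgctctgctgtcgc
Defa17, chr8:21656532-21656638: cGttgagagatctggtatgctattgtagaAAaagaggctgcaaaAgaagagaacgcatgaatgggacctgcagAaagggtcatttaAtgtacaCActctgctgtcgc
Defa26, chr8:21618773-21618879: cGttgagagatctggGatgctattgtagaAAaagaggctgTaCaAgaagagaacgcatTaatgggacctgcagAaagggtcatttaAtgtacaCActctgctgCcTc
Defa5, chr8:21298172-21298278: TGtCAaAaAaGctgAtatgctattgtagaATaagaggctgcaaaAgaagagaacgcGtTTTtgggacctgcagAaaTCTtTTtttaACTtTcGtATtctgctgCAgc
Defa30 differed from Defa24 at 2 of 107 letters, Defa17 at 8, Defa26 at 14 and Defa5 at 30. The exon of Defa3 at chr8:21288174-21288280 is the same as that of Defa17 in all 107 letters, and the 2 genes encode identical proteins of 93 residues. The exon of Defa5 is shared letter for letter by Defa34 and Defa35.

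Defa21 and Defa22 form a second family and are shown as a pair, the capital marking the only letter of this exon at which Defa22 differs from Defa21.
Defa21, chr8:21026314-21026420: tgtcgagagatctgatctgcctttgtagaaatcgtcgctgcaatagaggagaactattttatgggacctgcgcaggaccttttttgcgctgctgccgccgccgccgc
Defa22, chr8:21163046-21163152: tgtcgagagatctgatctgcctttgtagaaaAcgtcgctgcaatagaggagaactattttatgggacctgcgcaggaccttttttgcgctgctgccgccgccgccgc
Their whole proteins were 97.85% identical, as were those of Defa24 and Defa30. Defa29 stands apart, with a last coding exon of 176 bases. Its nearest relative is Gm14851, with which it shares 97.41% of its protein.

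The libraries held between 28937122 and 38454620 counted reads. Whether each library is a separate mouse is not stated by the labels, so p-values measure the spread between these libraries, which may be technical. Levels are read counts relative to library sizes (CPM) scaled by TMM, a trimmed mean of log ratios, and all changes are ΔIEC over control on the log2 scale. The targeted gene, Epas1, was at 44.2, 25.9 and 31.9 CPM in the ΔIEC libraries, against 12.2, 19.4 and 17.5 CPM in the control libraries. Its change was 1.06 (SE 0.28, adjusted p = 0.00613 in edgeR's test). It thus went against the genotype label, so the groups are named by their labels and no direction is drawn from them about HIF2α. Of the epithelial genes, Cdh1 and Krt20 rose, by 0.95 and 1.08, Epcam was at 0.50 (adjusted p = 0.162 in edgeR's test) and Krt8 fell by 1.30. They summed to 5626 to 7484 CPM in ΔIEC and 9496 to 10861 CPM in control libraries, a sum in which Krt8 alone averaged 3218 CPM in ΔIEC and 7910 CPM in control libraries. The myeloid, stroma and B cell lists summed to at most 68.4 CPM in any library. The 5 pancreatic genes summed to 20.2 CPM in ΔIEC library 1 and 10.2 CPM in control library 2, and to at most 0.0582 CPM elsewhere.

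Paneth transcripts made up a few percent of every library, and 3 of the 23 tested members passed the test for a difference between the groups. All members together took 2.94 ± 1.86% of the reads in ΔIEC libraries and 2.77 ± 0.251% in control libraries (SD, n = 3 each). In edgeR's quasi-likelihood test with Benjamini-Hochberg adjustment over 15143 genes (adjusted p below 0.05), Defa3 and Defa17 fell, Defa-ps16 rose, and the other 20 members did not pass. That is 13.0% of the members, beside 66.9% of all tested genes, of which 37.2% rose and 29.7% fell. The median change of the members was -0.61, against 0.15 over all tested genes, and 18 of 23 members were below 0. After correction for the GC content and length of each gene, Ang4 also fell, which makes 3 lower and 1 higher, or 17.4% of the members, beside 29.9% of all genes (14.3% higher, 15.6% lower). With libraries scaled by their totals alone, the median of all genes moved to 0.61 and 43.3% of genes rose while 17.6% fell. Of the members, Lyz1 and Defa-ps16 then rose and Defa3 fell.

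**Figure D1:**
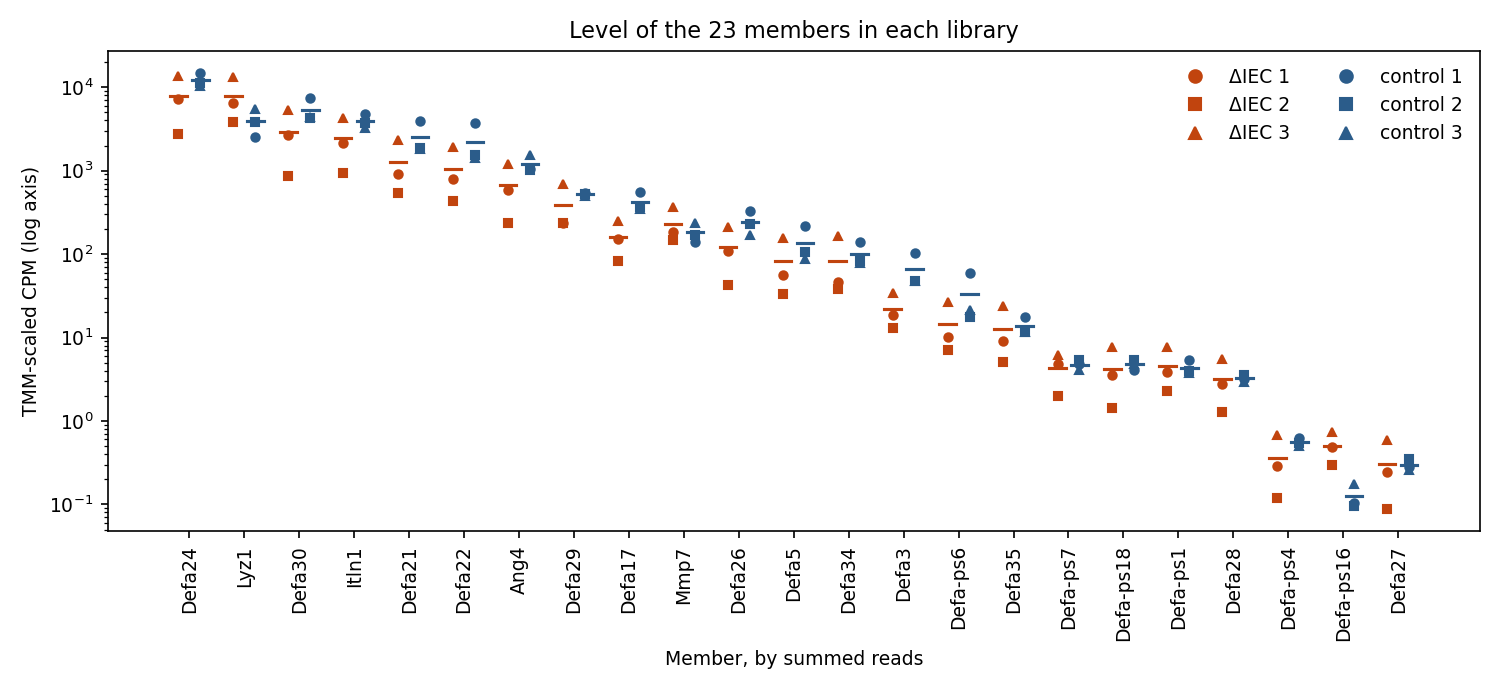
Level of each member in each library, in TMM-scaled CPM on a log axis, with ΔIEC libraries to the left of control libraries, 1 symbol for each library and a line at the group mean (n = 3). Defa24 is at 2773 to 13689 CPM in ΔIEC libraries and 10266 to 14977 CPM in control libraries, and ΔIEC library 3 is the highest of its group for the 23 tested members.

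The members differed widely, and together, among the 3 ΔIEC libraries. ΔIEC library 3 had the highest level of its group for 23 of 23 members, and ΔIEC library 2 the lowest for 22 of 23. The ratio of library 3 to library 2 had a median of 4.41 over the members and ran from 2.47 to 6.69, while its median over all tested genes was 1.02. All 23 members were at least 2-fold apart in this direction, as were 3.22% of the tested genes. The coefficient of variation had a median of 69.7% over the members in ΔIEC libraries, where it was 16.3% over all tested genes. In the control libraries it was 26.6% over the members and 27.0% over all tested genes. ΔIEC library 2 lay below all 3 control libraries for 20 members and library 1 for 18, whereas library 3 lay above all 3 for 12. For single libraries this was not counted over all tested genes. All 3 ΔIEC libraries together lay below all 3 controls for 33.6% of the tested genes and above them for 39.0%. Near-identical copies may share reads, so these are not counts of independent genes.

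**Figure D2:**
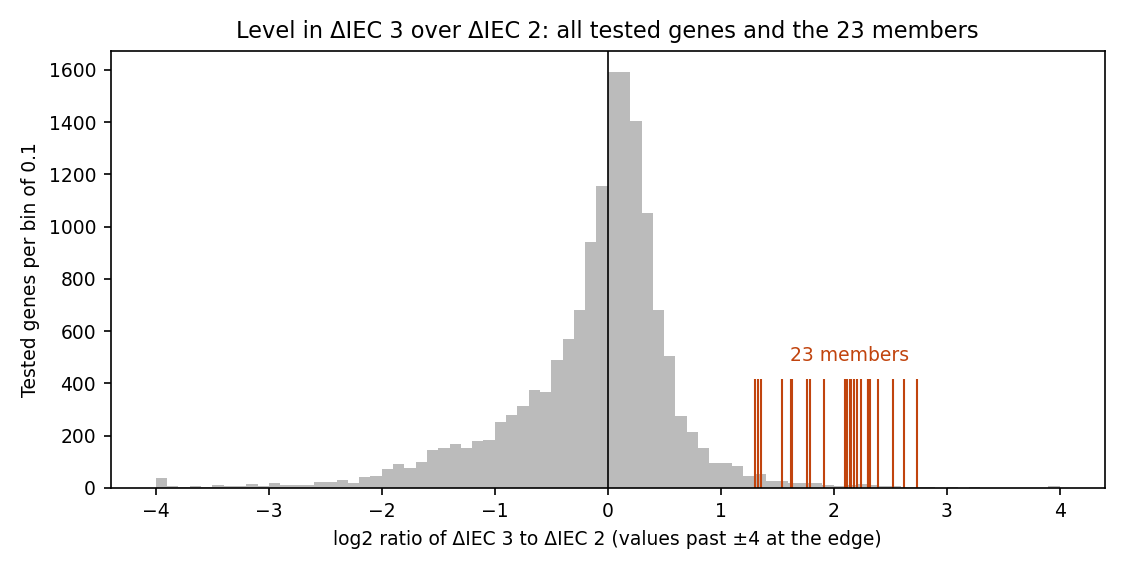
Histogram of the log2 ratio of TMM-scaled CPM in ΔIEC library 3 to ΔIEC library 2 over the tested genes, in bins of 0.1, with a vertical line for each of the 23 members. The members sit between 2.47-fold and 6.69-fold, to the right of most genes, whose median ratio is 1.02.

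What the test finds depends on which libraries are kept. Without ΔIEC library 3, 15 members fell, beside 27.9% of all tested genes, and 19 fell after the GC and length correction, beside 14.6%. That library stood out by the levels of the members themselves, so these counts are a description. With the correction, 0 members fell without ΔIEC library 1, beside 1121 of 15431 genes. Also 0 fell without control library 1, beside 1976 of 15691 genes. The 15 that fell without ΔIEC library 3 include every leading α-defensin, Itln1 and Ang4. Defa24 was then at -1.30 (SE 0.40, adjusted p = 0.0129) and Defa21 at -1.82 (SE 0.41, adjusted p = 0.00211) in edgeR's test. Other measures moved with ΔIEC library 3. Xist, transcribed from the inactive X chromosome of females, was at 172 CPM in ΔIEC library 3 but at 0.437 and 0.443 CPM in libraries 1 and 2, and Eif2s3y, on the Y chromosome, was at 0, 17.5 and 19.5 CPM in libraries 3, 1 and 2. In the control libraries 1 to 3, Xist was at 51.9, 0.322 and 48.4 CPM and Eif2s3y at 0, 3.58 and 5.21 CPM. The 7 T cell genes summed to 2537, 1680.5 and 402 CPM in the ΔIEC libraries, against 319, 979 and 737 CPM in the control libraries. The part of these in the spread of the Paneth transcripts was not tested.

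Defa24 was the most abundant transcript for its length in both groups, at a mean of 18829 CPM per kb of exon in ΔIEC libraries and 29066 CPM per kb in control libraries. Its level was 7206, 2773 and 13689 CPM in ΔIEC libraries, against 14977, 11292 and 10266 CPM in control libraries. The groups overlapped, because ΔIEC library 3 exceeded 2 of the controls, and the change of -0.63 (SE 0.48) did not pass, with an adjusted p of 0.272 in edgeR's test. In bulk cells, fewer Paneth cells and less RNA per Paneth cell cannot be told apart. Defa30, its near copy, ranked second per kb in both groups. Defa30 was at 2654, 853 and 5266 CPM in ΔIEC libraries and 7331, 4322 and 4353 CPM in control libraries. Here too ΔIEC library 3 lay inside the range of the controls and the other 2 below it.

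Defa17 and Defa3, the pair with identical proteins, were the α-defensins that fell. Defa17 was at 149.9, 81.8 and 252 CPM in ΔIEC libraries, against 551, 362 and 352 CPM in control libraries. All 3 ΔIEC libraries lay below all 3 controls, and the change was -1.39 (SE 0.38, adjusted p = 0.00836 in edgeR's test). Defa3 was at 18.6, 13.2 and 33.7 CPM in ΔIEC libraries, against 102, 47.4 and 47.6 CPM in control libraries. Its groups did not overlap either, and its change of -1.59 (SE 0.41) had an adjusted p of 0.00658 in edgeR's test. With the GC and length correction the changes were -1.61 for Defa17 and -1.89 for Defa3, with adjusted p of 0.0315 and 0.0272 in edgeR's test. These corrected calls were lost for both genes without ΔIEC library 1, ΔIEC library 2 or control library 1, with adjusted p between 0.0565 and 0.112 in edgeR's test, and for Defa17 also without control library 3, at 0.0556. Without control library 1, Defa17 was at -1.12 and its adjusted p was 0.0513 in edgeR's test. Only 9.40% of the 100-base windows of the Defa17 transcript and 13.2% of those of Defa3 occur in no other gene, so their reads cannot be assigned to one gene of the pair with confidence. As a share of all Defa reads, the pair held 1.38, 1.87 and 1.15% in ΔIEC libraries and 2.04, 2.01 and 2.09% in control libraries. The groups did not overlap in this share, nor in that of Defa17 alone, but they overlapped in that of Defa3, at 0.152, 0.260 and 0.136% in ΔIEC libraries and 0.320, 0.232 and 0.249% in control libraries. The pair was chosen for its lower levels, so its share is given as a description.

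Defa21 and Defa22 kept close to one another. Defa21 was at 909.7, 544 and 2358 CPM in ΔIEC libraries, against 3988, 1868 and 1795 CPM in control libraries. Defa22 was at 787, 430.4 and 1921 CPM in ΔIEC libraries, against 3674, 1526 and 1408 CPM in control libraries. Control library 1 was high for both, and ΔIEC library 3 lay within the controls. Summed as 1 feature, because their transcripts differ so little, the pair was at -1.04, with an adjusted p of 0.128 in edgeR's test.

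Of the less abundant coding copies, Defa26 was at -1.01 (SE 0.51, adjusted p = 0.11 in edgeR's test). Its level was 109.9, 42.3 and 209 CPM in ΔIEC libraries and 332, 228 and 171 CPM in control libraries. The order of the ΔIEC libraries was that of Defa24. Defa29 was at 237, 238 and 692 CPM in ΔIEC libraries and 539, 525 and 498 CPM in control libraries, which lay close to each other. Defa5 was at 55.9, 33.0 and 157 CPM in ΔIEC libraries and 218, 106 and 88.2 CPM in control libraries. Its relatives Defa34 and Defa35 had changes of -0.26 and -0.11, and these 3 summed with their copies were at -0.50, with an adjusted p of 0.448 in edgeR's test. Defa28 and Defa27, at means of at most 3.23 CPM in either group, had changes of -0.01 and 0.04.

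The 6 pseudogenes together drew 7460 of the 3724932 Defa reads. Defa-ps16 was the only member that rose. It had 20, 10 and 25 reads in ΔIEC libraries, against 3, 3 and 6 reads in control libraries, and the groups did not overlap. Its change was 1.97 (SE 0.54, adjusted p = 0.00667 in edgeR's test), and 37.5% of its 100-base windows occur in no other gene. With the correction it was 1.91 and passed at 0.0272, but not without ΔIEC library 1 or 3 or any 1 control library, where the adjusted p in edgeR's test ran from 0.0615 to 0.125. Defa-ps6 was at 10.02, 7.12 and 26.9 CPM in ΔIEC libraries and 60.1, 17.6 and 21.4 CPM in control libraries, with a change of -1.17 (adjusted p = 0.120 in edgeR's test). The other 4, Defa-ps7, Defa-ps18, Defa-ps1 and Defa-ps4, had changes between -0.61 and 0.09. Over the 23 tested members the groups did not overlap for 2 lower genes and 1 higher gene, the same 3 that passed the test. Over all tested genes they did not overlap for 72.6%, 39.0% higher and 33.6% lower.

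Summing all Defa reads sets aside how reads were split among the Defa genes. It does not bring back reads that the counting may have dropped or given to copies under other symbols. The sum was 12210.0, 5067 and 24823 CPM in ΔIEC libraries, against 31946, 20407 and 19107 CPM in control libraries. ΔIEC libraries 1 and 2 lay below every control and library 3 between them. The change was -0.77 (SE 0.50, adjusted p = 0.203 in edgeR's test), and the exact two-sided permutation test over the 6 libraries gave p = 0.3, where the smallest it can give is 0.1. The sum passed without ΔIEC library 3, at -1.48 (adjusted p = 0.00715 in edgeR's test), and was then -1.80 with the GC and length correction (adjusted p = 0.0263 in edgeR's test). It was -0.36 without ΔIEC library 2 and -0.47 without control library 1, and did not pass in either. ΔIEC library 3 stood out by the levels of these same genes, so the fits without it are a description. As a share of all reads, Defa took 1.64 ± 1.09% in ΔIEC libraries and 1.98 ± 0.364% in control libraries (SD, n = 3 each). RefSeq names 6 further genes of the cluster as α-defensins, which GENCODE M21 lists under other symbols and the choice of members therefore left out. The leading ones are AY761184 (Defa39 in RefSeq) and Gm14851 (Defa38). AY761184 was at 1459, 768 and 2699.8 CPM in ΔIEC libraries, against 4209.8, 2904 and 2287 CPM in control libraries, a change of -0.93 (SE 0.42, adjusted p = 0.0757 in edgeR's test). Gm14851 was at 1487, 632 and 2785 CPM in ΔIEC libraries, against 2664, 2371 and 2279 CPM in control libraries. Its change was -0.58 (SE 0.44, adjusted p = 0.269 in edgeR's test). With the GC and length correction, AY761184 was at -1.26 and Gm14851 at -0.01, and neither passed. With all 6 added, the summed change was -0.77, with an adjusted p of 0.185 in edgeR's test.

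**Figure D3:**
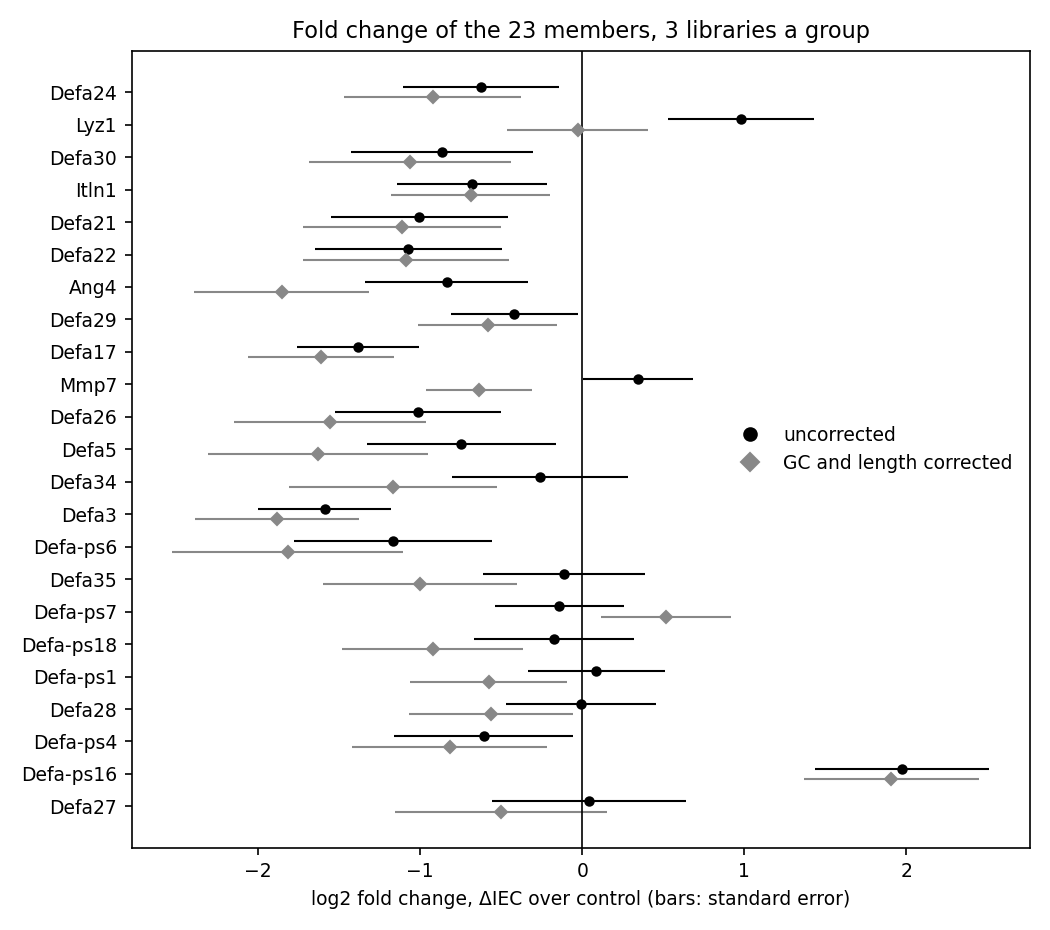
Log2 fold change of each member, ΔIEC over control, with its standard error (3 libraries a group), without correction (circles) and after the GC and length correction (diamonds). Defa3 and Defa17 lie lowest among the members that passed without correction, at -1.59 and -1.39, and Defa-ps16 highest at 1.97, while Lyz1 is at 0.98 without correction and at -0.03 with it.

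Mmp7 encodes matrilysin, the protease that activates the α-defensin precursors in the mouse. It was at 182, 148 and 365 CPM in ΔIEC libraries, against 141, 168 and 237 CPM in control libraries. The groups overlapped, and the change was 0.35 (SE 0.34, adjusted p = 0.381 in edgeR's test) without correction and -0.64 with it. Lyz1, the lysozyme of Paneth cells, was at 6389, 3819 and 13208 CPM in ΔIEC libraries, against 2513, 3854 and 5496 CPM in control libraries. ΔIEC library 2 lay inside the range of the controls and the other 2 above it. The change of 0.98 (SE 0.45) had an adjusted p of 0.0796 in edgeR's test, the nearest to the threshold among the members that missed it, and was -0.03 after the GC and length correction. Per kb of exon, Lyz1 was the third most abundant transcript in ΔIEC libraries and stood at rank 18 in control libraries. Its close relative Lyz2, expressed by macrophages, was at no more than 16.6 CPM in any library, and 97.9% of the 100-base windows of Lyz1 occur in no other gene.

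Ang4, the RNase of the granules, was at 583, 238 and 1189.5 CPM in ΔIEC libraries, against 1035, 1021 and 1536 CPM in control libraries. ΔIEC library 3 lay within the controls, and the change was -0.84 (SE 0.50, adjusted p = 0.168 in edgeR's test). With the GC and length correction it was -1.86 (SE 0.54, adjusted p = 0.0363 in edgeR's test), the only member that passed with the correction and not without. That call was lost without ΔIEC library 1 or any 1 of the 3 control libraries, with adjusted p between 0.0656 and 0.139 in edgeR's test. Itln1, an intelectin made by Paneth and goblet cells of the mouse, was at 2162, 939 and 4251 CPM in ΔIEC libraries, against 4801, 3739 and 3239.7 CPM in control libraries. Its change was -0.68 (SE 0.46, adjusted p = 0.216 in edgeR's test), and its libraries had the same order as those of Defa24 in both groups.

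Ratios within a library need no scaling between libraries, and the groups did not overlap for Lyz1 and Mmp7 but overlapped for Ang4 and Itln1. Per 100 Defa reads there were 52.3, 75.4 and 53.2 reads of Lyz1 in ΔIEC libraries, against 7.87, 18.9 and 28.8 in control libraries. No library of one group reached into the other. The log2 ratio differed by 1.87, with p = 0.1 in the exact two-sided permutation test, the smallest it can give, and 0.45 after adjustment over the 9 ratios and shares tested. The difference ran from 1.35 without control library 1 to 2.29 without control library 3, and was 1.01 after the GC and length correction. The corrected ratios lay closer together, at 38.2, 56.4 and 39.8 in ΔIEC libraries, against 10.7, 27.5 and 35.6 in control libraries. Mmp7 had 1.49, 2.92 and 1.47 reads per 100 Defa reads in ΔIEC libraries, against 0.443, 0.825 and 1.24 in control libraries, again with no overlap. The exact permutation p was 0.1, and 0.45 after the same adjustment. Mmp7 itself went from 0.35 to -0.64 with the GC and length correction. Over all tested genes the groups did not overlap in CPM for 72.6%, and the ratios of these genes to Defa reads were not computed. Itln1 held to the α-defensins in every library, with 17.7, 18.5 and 17.1 reads per 100 in ΔIEC libraries and 15.03, 18.3 and 17.0 in control libraries. Ang4 had 4.77, 4.70 and 4.79 reads per 100 in ΔIEC libraries, nearly the same value in each, and 3.24, 5.004 and 8.04 in control libraries.

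**Figure D4:**
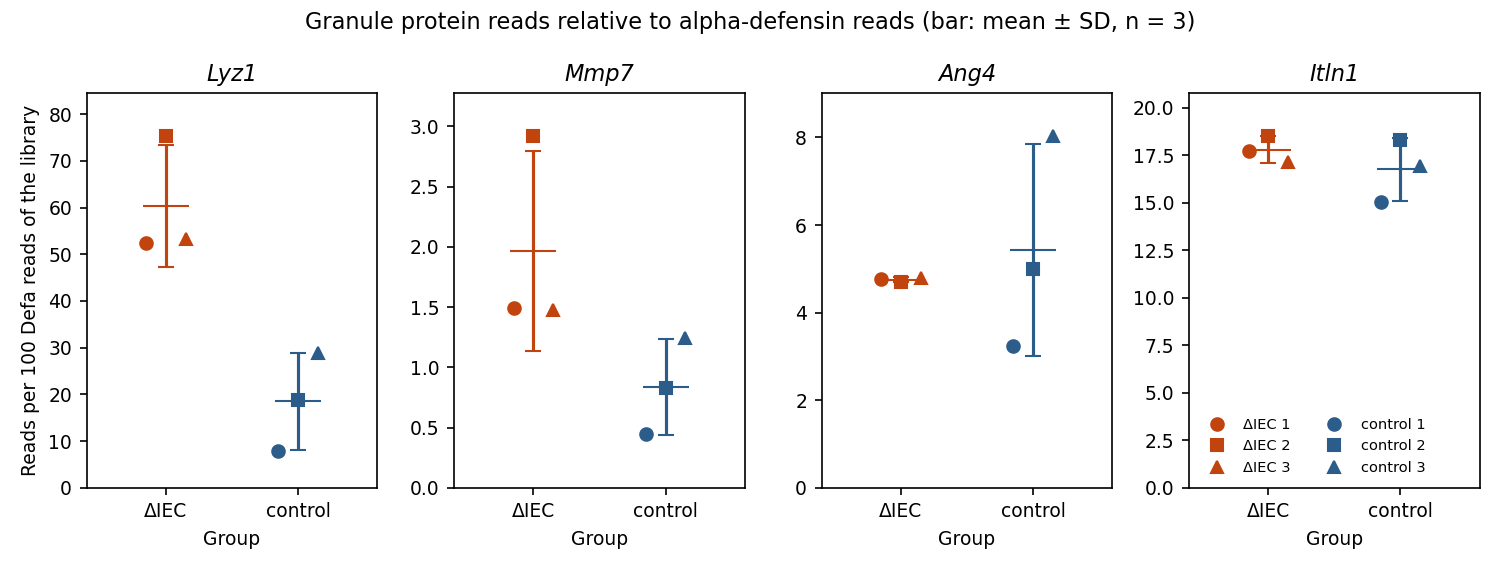
Reads of Lyz1, Mmp7, Ang4 and Itln1 per 100 Defa reads of the same library, ΔIEC left of control, with 1 symbol for each library and bars for the mean and SD (n = 3). Lyz1 is at 52.3 to 75.4 in ΔIEC libraries and 7.87 to 28.8 in control libraries, while Itln1 stays between 15.03 and 18.5 in all 6.

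The groups overlapped in how the Defa reads were split among the larger sets of copies. Copies were linked where their proteins were at least 90% identical, so less similar copies could join a set through others. The proteins of Defa24 and Defa28, in the same set, were 77.9% identical. The group of Defa24, Defa30, Defa17 and Defa3 with their relatives held 82.2, 73.5 and 77.5% of Defa reads in ΔIEC libraries and 71.9, 78.5 and 78.6% in control libraries. Defa21 and Defa22 held 13.9, 19.2 and 17.2% in ΔIEC libraries and 24.0, 16.6 and 16.8% in control libraries. For both, the groups overlapped, with exact two-sided permutation p of 0.7 and 0.6. Control library 1 had the largest share of Defa21 and Defa22.

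Most coding genes of the family with few or no reads share nearly all of their sequence with another gene. Of the 20 genes that did not reach 15 reads, 12 had no read at all and the highest had 13. The 9 coding genes among them had a median of 0.307% of 100-base windows found in no other gene, against 59.8% for the 13 coding genes kept. There were exceptions both ways, since Defa25 had 54.4% of such windows and 10 reads, and Defa5 had 11.9% and 21327 reads. The pseudogenes Defa-ps12, Defa-ps13, Defa-ps14 and Defa-ps15 shared no 100-base window with another gene and had 0 reads. Defa2, Defa20, Defa32 and Defa33, for example, have the same last coding exon, shown here for Defa2 because a read from it fits all 4 genes.
Defa2, chr8:21379287-21379399: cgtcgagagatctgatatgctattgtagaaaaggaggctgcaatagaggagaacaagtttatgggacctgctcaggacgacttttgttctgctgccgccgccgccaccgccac
Together these 4 had 16 reads over the 6 libraries. How reads that fit several genes were counted is not stated in the sources used here, so low counts for these copies say nothing of their expression.

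**Figure D5:**
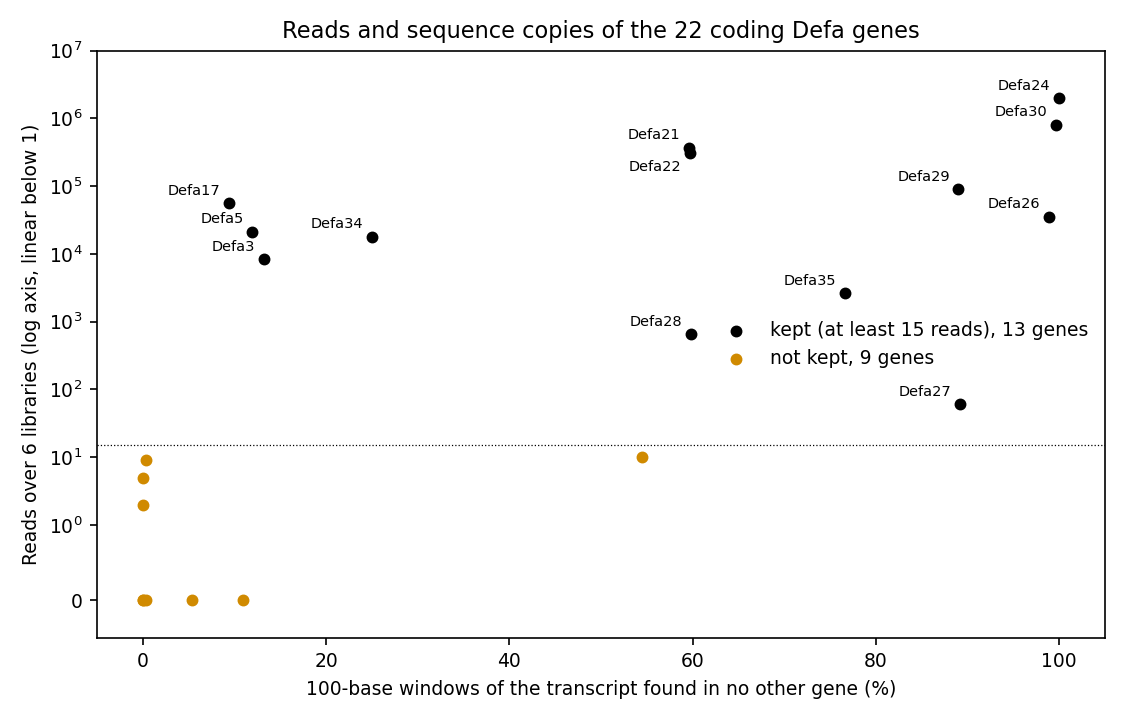
Reads over the 6 libraries (log axis, linear below 1) against the percentage of 100-base windows of the transcript that occur in no other gene, for the 22 coding Defa genes. The 13 kept genes run from 9.40% to 100%, and 8 of the 9 genes not kept lie below 11%.

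The promoters show how alike the copies are upstream as well. RefSeq promoter windows, 250 bases before to 50 after the start on GRCm38.p6, were at hand for 9 of the 23 members, and for 16 α-defensin genes when unkept and RefSeq-named ones are included. The core CTTTGA, recognised by the Wnt effectors of the TCF family, was searched on both strands, as was the TATA box TATAAA. At least 1 CTTTGA lay in 13 of the 16 α-defensin windows, always on the antisense strand as TCAAAG, while 16% of all 32851 windows hold it on either strand. In 9 of the 16 it occurred 2 times, 40 bases apart. TATAAA lay in 15 of the 16, against 13.6% of all windows. Some of the 16 windows are identical or near-identical copies, so these are not counts of independent promoters. Windows of 2 genes are shown because these are among the leading α-defensins, with both motifs in capitals. The Defa21 window is the same, letter for letter, as that of Defa22.
Defa21, chr8:21025295-21025594, forward strand: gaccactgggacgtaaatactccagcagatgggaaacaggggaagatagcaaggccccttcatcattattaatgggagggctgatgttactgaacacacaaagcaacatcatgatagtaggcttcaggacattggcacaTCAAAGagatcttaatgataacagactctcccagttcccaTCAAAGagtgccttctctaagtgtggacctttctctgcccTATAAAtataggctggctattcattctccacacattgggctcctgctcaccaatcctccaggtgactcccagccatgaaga
Defa30, chr8:21134400-21134699, forward strand: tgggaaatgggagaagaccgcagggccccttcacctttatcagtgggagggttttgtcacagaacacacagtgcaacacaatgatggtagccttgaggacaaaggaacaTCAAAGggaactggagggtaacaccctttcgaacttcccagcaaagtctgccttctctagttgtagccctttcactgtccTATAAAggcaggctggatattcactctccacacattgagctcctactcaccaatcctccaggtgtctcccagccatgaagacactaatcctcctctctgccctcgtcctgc
Defa30 holds 1 CTTTGA, and Lyz1, Ang4 and Itln1 hold neither motif in their windows. Of the cores of the hypoxia response element, ACGTG (19.6% of all windows) and GCGTG (32.4%) were each found in 1 of the 21 member and relative windows, both times in 1 of the 2 windows of Mmp7. These are matches of letters and show no binding.

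Other genes of the Paneth cell programme were counted from lists of regulators, products and granule genes. Of 14 tested products of these cells other than the members, 1 rose and 1 fell, beside 66.9% of all tested genes called. With the GC and length correction 1 rose and 3 fell, beside 29.9% of all genes. Dmbt1, a mucin-like scavenger that is also made by other epithelial cells, rose by 1.86 (SE 0.30, adjusted p = 0.000418 in edgeR's test) and by 1.42 with the correction. Clps, a colipase, fell by 1.94 (SE 0.50, adjusted p = 0.00883 in edgeR's test), but with the correction it was at -0.97 and did not pass (adjusted p = 0.162 in edgeR's test). The 3 that fell with the correction were Reg3a, an antimicrobial lectin, at -1.45, Mptx1, a pentraxin, at -2.09, and Ang, an RNase, at -1.22. ΔIEC library 3 was at least 2-fold above library 2 for 9 of these 14, AY761184 among them, as it was for the 23 tested members. The antimicrobial lectins Reg3b and Reg3g went the other way by at least 2-fold, at 5088 and 2597 CPM in ΔIEC library 2 and 1978 and 734 CPM in ΔIEC library 3. Library 3 was at least 2-fold above library 2 for 3 of 17 regulators and niche factors, and for none of 10 granule and autophagy genes, 6 goblet, 8 enterocyte or 5 stem cell genes.

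Among the 17 regulators and niche factors, 4 rose and 6 fell, a share near the 66.9% called over all tested genes. With the GC and length correction 4 rose and 2 fell, beside 29.9% of all genes called. Their median was -0.40 without the correction, against 0.15 over all tested genes, and -0.01 with it. Egf, a growth factor that Paneth cells supply to stem cells, was at 2.16, 1.09 and 2.82 CPM in ΔIEC libraries and 0.312, 0.161 and 0.320 CPM in control libraries. It rose by 2.92 (SE 0.49, adjusted p = 0.000506 in edgeR's test), and by 1.90 with the correction. Wnt3, the Wnt ligand of Paneth cells, was at 7.06, 4.31 and 11.1 CPM in ΔIEC libraries and 22.5, 14.8 and 11.9 CPM in control libraries. It fell by 1.13 (SE 0.37, adjusted p = 0.0175 in edgeR's test), and by 1.28 with the correction (adjusted p = 0.0368 in edgeR's test). The other risers were Tcf7l2, a Wnt effector, the Wnt receptor Fzd5 and the surface protein Cd24a, all of which also passed with the correction.

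Of the transcription factors of the secretory lineage, Spdef fell by 1.46 (adjusted p = 0.000883 in edgeR's test) and Bhlha15 by 1.41 (adjusted p = 0.0141 in edgeR's test). With the correction they were at -0.35 and -0.88 and did not pass. The Notch ligand Dll4 and the ephrin receptors Ephb2 and Ephb3 also fell, by 0.89, 0.59 and 1.15, and did not pass with the correction either. Atoh1 was at -0.49, Gfi1 at -0.12, Xbp1 at -0.40 and Sox9, needed for Paneth cells to form, at -0.43, and these 4 did not pass. Of the 4, Sox9 alone passed after the correction, at -1.47 (SE 0.25, adjusted p = 0.00362 in edgeR's test).

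Among 10 tested granule and autophagy genes, 5 rose and 2 fell, a share near the 66.9% called over all tested genes. With the GC and length correction 3 rose and 1 fell, beside 29.9%. Irgm1, an immunity-related GTPase needed for normal Paneth cell granules in mice, was at 46.1, 67.1 and 31.2 CPM in ΔIEC libraries, against 5.71, 7.02 and 7.51 CPM in control libraries. It rose by 2.83 (SE 0.32, adjusted p = 0.000189 in edgeR's test), and by 1.36 with the correction. Of the autophagy genes, Atg5 rose by 2.06, and by 1.11 with the correction, while Atg7 fell by 0.79 (adjusted p = 0.0111 in edgeR's test) and did not pass with it, at -0.27. Atg16l1 was at -0.45 and passed only with the correction, at -0.78. Ern1, a sensor of unfolded proteins, rose by 1.47, and by 1.40 with the correction. Kcnn4, a potassium channel of Paneth cells, fell by 1.37, but was at -0.26 with the correction and did not pass (adjusted p = 0.390 in edgeR's test).

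Of 5 genes of the stem cells that lie between Paneth cells, 2 rose and 1 fell, beside 66.9% of all tested genes called. With the GC and length correction 3 rose, beside 14.3% of all genes. Olfm4 was at 1063, 879 and 1122 CPM in ΔIEC libraries, against 237, 99.6 and 194 CPM in control libraries, a rise of 2.53 (SE 0.31, adjusted p = 0.000194 in edgeR's test). Lgr5, the receptor that marks these stem cells, rose by 2.51 (SE 0.36, adjusted p = 0.000259 in edgeR's test). With the GC and length correction these rises were 1.32 and 1.30. Ascl2, a transcription factor of the same cells, fell by 1.46 (adjusted p = 0.00464 in edgeR's test), and was at -0.19 and did not pass with the correction. Axin2, a Wnt target, was at -0.14, and rose by 0.81 with the correction. The list summed to 1282, 1077 and 1418 CPM in ΔIEC libraries and 440.0, 320.4 and 434 CPM in control libraries, and Olfm4 made up most of it in the ΔIEC libraries. Goblet cell genes summed to 13038, 19477 and 14596 CPM in ΔIEC libraries and 17892, 24939 and 16193 CPM in control libraries. Of 6, Clca1 rose by 1.62, Tff3 fell by 0.87 and Spink4 also fell, beside 66.9% of all tested genes called. These 3 calls were lost with the correction, where 29.9% of all genes were called. Muc2, the mucin of goblet cells, was at 0.21 (SE 0.26, adjusted p = 0.480 in edgeR's test).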

How the data were processed

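RNA of small-intestine epithelial cells was sequenced in 6 libraries, 3 labelled ΔIEC and 3 littermate controls. The table the authors deposited holds unnormalised counts of reads for each gene, made with cutadapt 1.18, STAR 2.6.1c, SAMtools 1.8 and Subread 1.6.1 on GRCm38, per the submitters' processing notes. Strand and the handling of reads that fit several genes are not stated in the sources used here, so near-identical copies are uncertain. GENCODE M21 gave gene symbols, transcript lengths and GC content. The members and lists were chosen with earlier results of these data known.

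Counts were tested with edgeR 4.0.16 in R 4.3.3 (robust quasi-likelihood, TMM, filterByExpr with minimum count 10 and minimum total 15, Benjamini-Hochberg over 15143 genes, threshold 0.05). On simulated data this test called few unchanged genes, and found 19.1% of added 2-fold changes. Once a trend with GC content and length was added, it called about as many unchanged genes as it left uncalled. The corrected fit then called few and found 16.7% of 2-fold changes. The added trend was the one this fit had itself drawn from the data, so its removal was fixed in advance and is no support for the correction. An SE is the log2 fold change over the square root of F. For the correction, natural splines of GC content (df 6) and of log2 length (df 5) were fitted to the departure of each library from the mean log2 CPM (prior count 2) and entered as an offset, for 15135 genes. It also removes any true difference that follows GC content or length. CPM are TMM-scaled. Window uniqueness was taken over all GENCODE transcripts. All members with at least 15 reads are named. The rule named at most 5 genes from each other list, by adjusted p or as its defining genes, and further genes of these lists were named after their values were seen. Alternatives were other scalings, filters, thresholds, the DESeq2 1.42.0 Wald test and leaving out each library. Library pairs differed by at least 78.4 in chi-square per degree of freedom, and none was taken as a repeat.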

Additional observations from a re-analysis of the deposited data

How the results depend on the processing

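Members called higher numbered 2 in place of 1 with total count scaling, without a filter, in DESeq2's Wald test or at a threshold of 0.10, and 0 with a filter of 1 CPM in 3 libraries, which leaves out Defa-ps16. Members called lower numbered 1 in place of 2 with total count scaling, 7 without a filter and 5 in DESeq2's Wald test. Leaving out each library, with or without the GC and length correction, gave 0 to 2 higher and 0 to 19 lower. The summed α-defensins were at -0.75 and passed without a filter (adjusted p = 0.0226 in edgeR's test), and ran from -1.80 to -0.36 with a library left out. They passed without ΔIEC library 3, at -1.48 without the GC and length correction and at -1.80 with it (adjusted p of 0.00715 and 0.0263 in edgeR's test). The summed members were at 0.085 with total count scaling, and at -1.58 to -0.013 with a library left out. They too passed without ΔIEC library 3 (adjusted p of 0.0207 and, with the correction, 0.0246 in edgeR's test). That library stood out by the levels of the members themselves, so the passes without it are a description. The Lyz1 to Defa ratio kept its direction under every alternative run. Scaling, filters, thresholds and leaving out 1 library could not turn it, because it is taken within a library and its groups do not overlap. With the GC and length correction, which could, the log2 difference was 1.01 in place of 1.87. The share of the Defa24 set minus its control share was 1.37 percentage points and ran from -0.86 to 3.50 with a library left out, and that of Defa21 and Defa22 was -2.34 and ran from -3.58 to 0.09.

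Among single members that did not pass, the direction turned with total count scaling for Defa29 and its set (0.032), Defa34 (0.21), Defa35 (0.36), Defa-ps7 (0.34), Defa-ps18 (0.28) and Defa28 (0.46). It turned with the GC and length correction for Lyz1 (-0.028), Mmp7 (-0.64), Defa-ps7 (0.52), Defa-ps1 (-0.58) and Defa27 (-0.50). It turned for Defa28 without a filter (0.0078), and with DESeq2's size factors in edgeR and in its Wald test for Defa-ps1 (-0.0838 and -0.0841) and Defa27 (-0.0920 and -0.0901). With a library left out, Lyz1 ran from -0.72 to 1.31, Mmp7 from -1.18 to 0.59, Defa34 from -2.38 to 0.087, Defa35 from -2.01 to 0.27, Defa-ps7 from -0.50 to 0.88, Defa-ps18 from -1.81 to 0.24, Defa-ps1 from -1.34 to 0.41, Defa28 from -1.32 to 0.38 and Defa27 from -1.45 to 0.47. The cause was not tested in any of these. Defa3 passed in 16 of 19 fits, Defa17 in 13 of 19 and Defa-ps16 in 13 of 18. No paired analysis was possible because the replicate numbers follow the order of the samples and the labels pair none of them.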

Other observations

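Lyz1 and the α-defensins ran in opposite order in the control libraries. Lyz1 was at 2513, 3854 and 5496 CPM in control libraries 1 to 3, where the summed Defa transcripts were at 31946, 20407 and 19107 CPM. Mmp7 followed Lyz1, at 141, 168 and 237 CPM in the same libraries, and Itln1 followed the α-defensins, at 4801, 3739 and 3239.7 CPM. Both orders also occurred outside Paneth cell genes. In control libraries 1 to 3, Epcam was at 661, 1040 and 1610 CPM and Krt8 at 9528, 7652 and 6549 CPM. The shares of all tested genes in either order were not counted. After the GC and length correction the reads of Lyz1 per 100 Defa reads were still 10.7, 27.5 and 35.6 in the 3 controls. Mptx2, a pentraxin of Paneth cells named here after its values were seen, was at 345, 281 and 1083 CPM in ΔIEC libraries and 222, 218 and 475 CPM in control libraries. Control library 3 held both Xist and Eif2s3y, at 48.4 and 5.21 CPM.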
